A study of Mus musculus with 16 samples.

Results

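The genes described here are 37 genes known to respond to type I interferon, listed by name with earlier results of these data known, and followed across 7 groups of mouse intestinal samples. In the annotation used here 36 of the 37 were named by 1 or more of 54 array probes, and Ifi44 by none. The 50 probes with a detection p under 0.05 on 2 or more of 14 arrays gave 33 genes that were tested among 11230 genes in all. Ifit1 was detected on 0 arrays and Parp9 and Xaf1 on 1 each, so these 3 were not tested. Just inside that limit lay the second probe of Samhd1, detected on 2 arrays. A gene seen in a single group passes such a filter through that group, so every count below is over the 33 tested genes and not over the whole list.

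RNA of dissected, frozen mucosa or tumour was hybridised to Illumina bead arrays, 1 per sample, and each value is a log2 intensity after background correction and quantile normalisation. The mice were of a mixed B6/129/Balbc/CD1 background, and doxycycline was given to all of them from an age of 6 to 7 weeks, wt controls included. Apcmin/+ mice carry a truncating allele of the Wnt regulator Apc and form intestinal adenomas, and iLIN28B mice carry an inducible form of LIN28B, an RNA-binding protein that blocks maturation of let-7 microRNAs. The labels do not say which promoter or cell type drives iLIN28B. The colon groups, all at 3 months, were wt mucosa (2 arrays), Apcmin/+ adenoma (2 arrays) and adenoma of iLIN28B; Apcmin/+ mice (3 arrays), called LIN28B/Apcmin here. The small intestinal groups were wt mucosa (1 array), Apcmin/+ adenoma (2 arrays) and LIN28B/Apcmin adenoma (2 arrays) at 3 months, and iLIN28B adenoma or adenocarcinoma (2 arrays) at 8 months.

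Sample titles open with a number that may name the animal. The 3 LIN28B/Apcmin colon tumours share the number 2135 and both iLIN28B tumours share 1737, so within these groups the spread may be that between tumours of 1 mouse, and the p-values below measure the spread between samples only. The title of LIN28B/Apcmin small intestinal replicate 2 names mucosa besides tumour, and that of iLIN28B replicate 2 names the jejunum. On the 14 arrays used, 48.3% to 56.5% of probes were detected, with a median signal of 51 to 79.9. LIN28B/Apcmin colon replicate 4 (number 1053) and wt small intestinal replicate 1 were left out at 12% and 5.28% of probes detected. LIN28B/Apcmin colon replicate 3 had lost 1985 signals, among them those of Isg15, Oas2, Oasl1 and Bst2, for which that group has 2 arrays. Epithelial markers were measured for 11 of 12 genes, with summed normalised intensities of 36951 to 66984 in colon and 42222 to 63160 in small intestine. The lowest colon sum is that of LIN28B/Apcmin replicate 3, which had lost Krt20, and a lost signal adds nothing to a sum.

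Type I interferons are secreted proteins that signal through the receptor pair IFNAR1 and IFNAR2 and the kinases JAK1 and TYK2. The kinases activate STAT2, which together with IRF9 binds the interferon-stimulated response element in the promoters of responding genes. These genes encode sensors of viral nucleic acid, proteins that block viral entry, translation or replication, and regulators that extend or stop the signal. In the intestine the same genes also answer type III interferons, which act mainly on epithelial cells, and the list cannot tell these signals apart.

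Because the response element is the known binding sequence of the pathway, the promoters of 7 members are shown, namely the 6 with a match to it that had the smallest p between LIN28B/Apcmin and Apcmin colon tumours, and Irf7, which has none. RefSeq promoters of build GRCm38.p6 were available for 28 of the 37 genes, and the 250 bases before each gene start were searched for 2 copies of GAAA with 2 bases of any kind between them and, for the other strand, 2 copies of TTTC spaced alike. Matches are in capitals below, 5′ to 3′ along the gene. Rsad2 (chr12:26456453-26456702, minus strand), encoding viperin, which makes a chain-terminating nucleotide, has a match 120 bases before its start. Ifit3 (chr19:34583279-34583528, plus strand), encoding a protein that helps block viral RNA, has matches 156 and 122 bases before it. Stat2 (chr10:128270248-128270497, plus strand), which encodes this activated factor itself, has a match at 222 bases. In Apol9b (chr15:77728822-77729071, plus strand), encoding an apolipoprotein L, matches begin 37 and 31 bases before the start and overlap. In Oas1a (chr5:120907526-120907775, minus strand), encoding an oligoadenylate synthetase, they begin at 20 and 14 bases and overlap too. In Isg15 (chr4:156200819-156201068, minus strand), encoding a ubiquitin-like modifier, 3 overlapping matches begin at 78, 72 and 66 bases. Irf7 (chr7:141266425-141266674, minus strand), encoding a transcription factor that amplifies the response, has no such run of letters in this window.
Rsad2: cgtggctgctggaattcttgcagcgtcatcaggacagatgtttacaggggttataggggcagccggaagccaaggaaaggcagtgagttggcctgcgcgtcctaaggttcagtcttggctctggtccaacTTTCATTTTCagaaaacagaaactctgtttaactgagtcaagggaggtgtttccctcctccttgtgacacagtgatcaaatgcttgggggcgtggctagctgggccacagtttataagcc
Ifit3: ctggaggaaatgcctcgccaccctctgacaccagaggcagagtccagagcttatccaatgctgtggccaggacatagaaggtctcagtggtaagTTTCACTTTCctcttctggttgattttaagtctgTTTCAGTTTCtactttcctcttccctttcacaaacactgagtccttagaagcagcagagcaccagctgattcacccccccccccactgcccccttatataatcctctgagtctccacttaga
Stat2: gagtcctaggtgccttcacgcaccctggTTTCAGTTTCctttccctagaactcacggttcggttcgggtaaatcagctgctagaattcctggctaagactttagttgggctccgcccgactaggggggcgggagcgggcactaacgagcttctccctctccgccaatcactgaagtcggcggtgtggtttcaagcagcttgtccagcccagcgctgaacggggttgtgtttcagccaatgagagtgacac
Apol9b: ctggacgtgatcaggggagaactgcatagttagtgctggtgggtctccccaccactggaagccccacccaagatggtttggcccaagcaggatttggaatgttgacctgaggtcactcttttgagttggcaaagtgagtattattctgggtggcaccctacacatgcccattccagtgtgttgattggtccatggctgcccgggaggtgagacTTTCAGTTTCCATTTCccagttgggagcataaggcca
Oas1a: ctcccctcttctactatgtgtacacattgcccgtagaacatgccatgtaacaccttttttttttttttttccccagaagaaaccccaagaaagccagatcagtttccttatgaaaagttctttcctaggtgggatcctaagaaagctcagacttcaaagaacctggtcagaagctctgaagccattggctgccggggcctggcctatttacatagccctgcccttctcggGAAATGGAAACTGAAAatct
Isg15: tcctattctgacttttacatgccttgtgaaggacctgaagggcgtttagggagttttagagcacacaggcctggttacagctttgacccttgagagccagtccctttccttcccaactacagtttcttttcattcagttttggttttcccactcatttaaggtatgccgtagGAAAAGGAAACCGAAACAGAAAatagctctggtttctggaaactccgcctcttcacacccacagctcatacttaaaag
Irf7: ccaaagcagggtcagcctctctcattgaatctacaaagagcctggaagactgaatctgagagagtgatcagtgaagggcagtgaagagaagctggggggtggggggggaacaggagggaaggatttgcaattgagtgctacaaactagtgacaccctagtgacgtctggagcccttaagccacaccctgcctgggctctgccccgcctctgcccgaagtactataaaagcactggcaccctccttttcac

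A match was found in 34.3% of the 35 promoters of member genes and in 2.98% of all 32851 promoters of the same length. Among members, 11 of 28 genes had a match, and 6 of these had 2 or more in 1 promoter, an arrangement found in 0.18% of all promoters. The palindromic TTCNNNGAA, the site associated with interferon gamma, was also searched, and was found in 17.1% of the member promoters and 7.02% of all promoters, overlapping the first motif in 1 member promoter. These matches describe letters, and no binding was measured. The log2 difference between LIN28B/Apcmin and Apcmin colon tumours had a median of 1.91 over the 10 tested members with a response element match and of 1.27 over the 15 without, a contrast given as a description with no test.

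Interferon genes were higher in colon tumours with LIN28B than in those without. In LIN28B/Apcmin colon tumours 13 of 33 genes were higher than in Apcmin colon tumours and 0 were lower at an adjusted p under 0.05 (limma, two-sided, Benjamini-Hochberg over all genes), while 0.499% of the 11230 genes were called higher and 1.18% in either direction. At an unadjusted p under 0.05, 25 of the 33 were higher and 0 lower. The median log2 difference of the 33 was 1.54, against 0.00086 over all genes, and all 33 point estimates were above 0. In 28 of 33 genes every LIN28B/Apcmin array with a signal lay above both Apcmin arrays, against 17% of all genes. For Isg15, Oas2, Oasl1 and Bst2 these are 2 arrays. Replicate 3 read under 25 there and was set missing, so the count leaves those low readings out. The 5 genes whose arrays overlapped were Ifih1, Zbp1, Irf1, Samhd1 and Cxcl10.

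**Figure D1:**
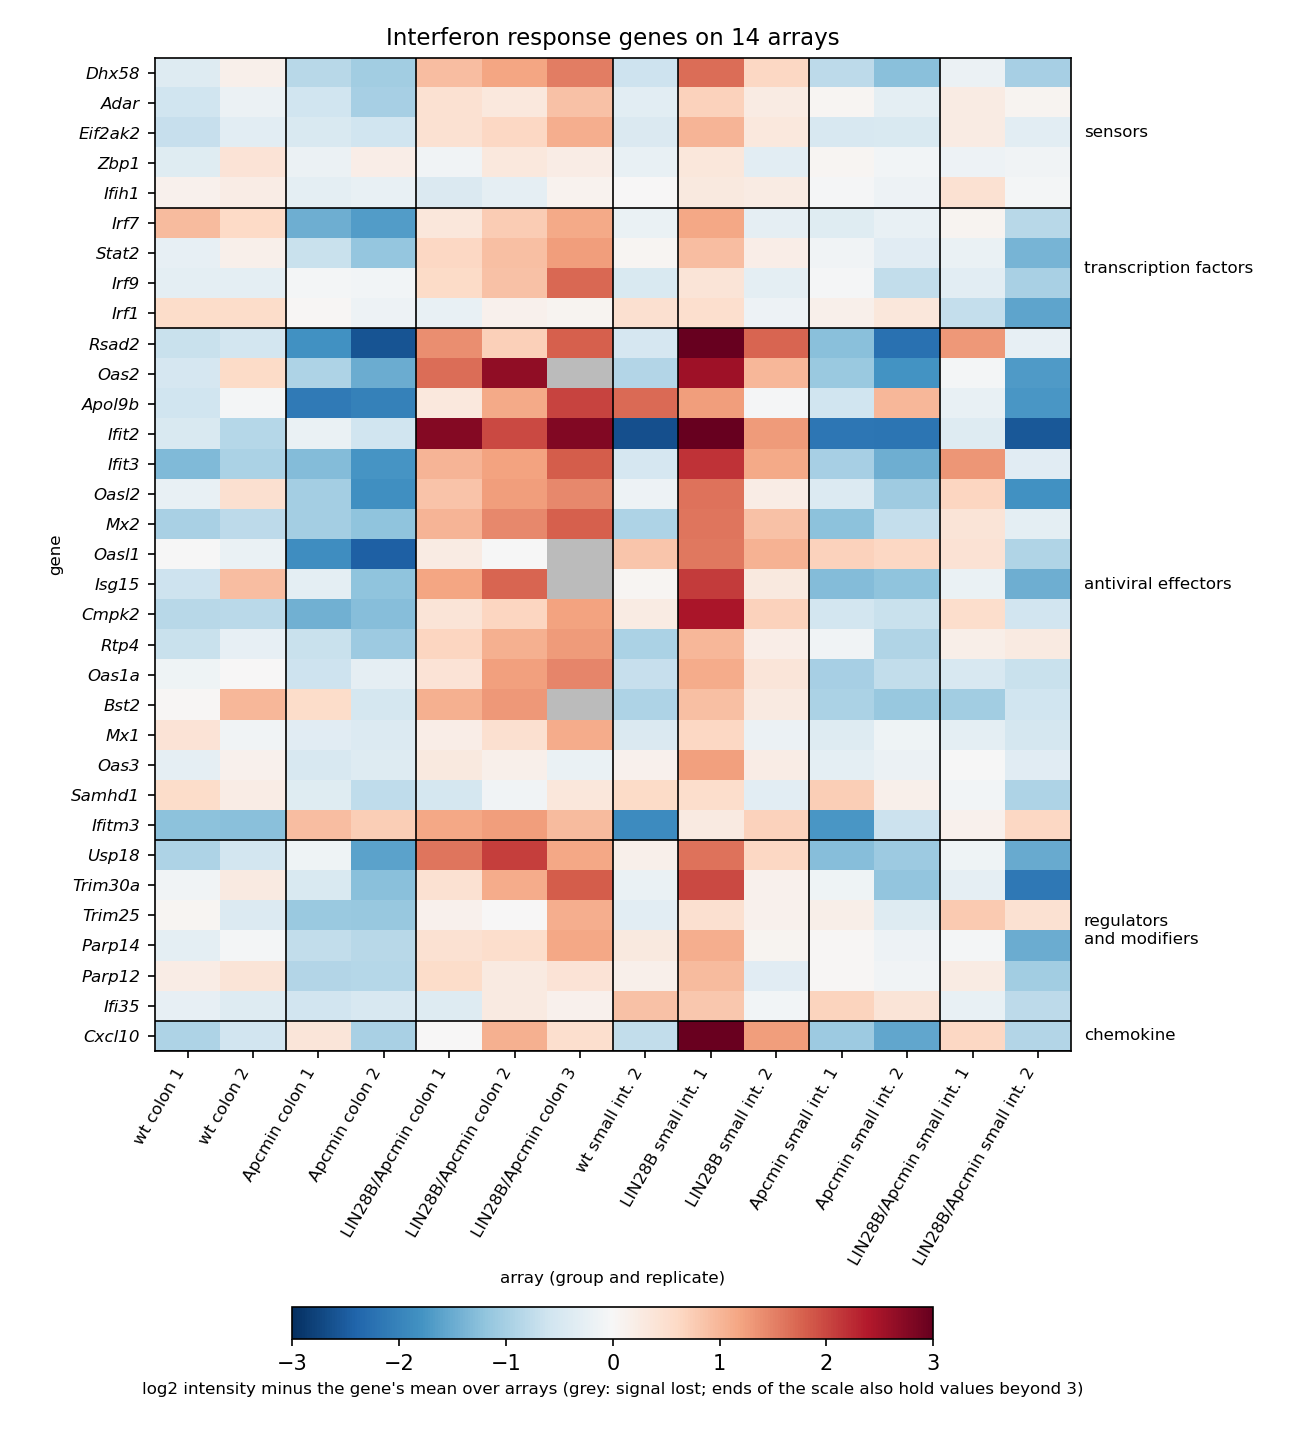
Log2 intensity of the 33 tested interferon response genes (rows, grouped by role and sorted by their difference between LIN28B/Apcmin and Apcmin colon tumours) on 14 arrays (columns, by group and replicate), each minus the gene's mean over arrays. The 3 LIN28B/Apcmin colon columns and iLIN28B small intestinal replicate 1 are mostly above the genes' means (28, 30 and 28 genes, and 33 genes), and both Apcmin colon columns mostly below (4 and 2 genes above).

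Among the 5 sensors, 2 rose. Dhx58, the RIG-I-like helicase LGP2, stood at 7.04 and 7.58 on the wt colon arrays, 6.59 and 6.36 on the Apcmin arrays and 8.34, 8.61 and 8.95 on the LIN28B/Apcmin arrays. The LIN28B/Apcmin tumours were above every other colon array, with a log2 difference from Apcmin tumours of 2.16 ± 0.35 (SE, adjusted p = 0.0210). Adar, which edits adenosines in double-stranded RNA, stood at 6.89 and 6.50 in Apcmin and 7.94, 7.82 and 8.36 in LIN28B/Apcmin tumours, without overlap (1.34 ± 0.24, adjusted p = 0.0295). Its other 2 probes differed by 1.12 and 0.90, with adjusted p-values of 0.119 and 0.0959 in a fit of each probe. Eif2ak2, the RNA-activated kinase PKR, did not overlap either but missed the threshold (1.25 ± 0.27, adjusted p = 0.0544). Zbp1, a sensor of Z-form nucleic acid, differed by 0.13 ± 0.27 (adjusted p = 0.900). The sensor Ifih1 (MDA5) was not detected on any array of either colon tumour group, so no difference can be read from it.

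Of the 4 transcription factors, Irf7 and Stat2 rose. Irf7 stood at 8.70 and 8.35 in wt mucosa, 6.30 and 6.08 in Apcmin tumours and 8.11, 8.52 and 8.90 in LIN28B/Apcmin tumours. Both Apcmin arrays were thus far below every other colon array, and the log2 difference between the tumour groups was 2.32 ± 0.40 (adjusted p = 0.0264). Stat2 stood at 6.36 and 5.85 in Apcmin and 7.64, 7.93 and 8.27 in LIN28B/Apcmin tumours, without overlap (1.84 ± 0.36, adjusted p = 0.0365). Irf9, the DNA-binding partner of STAT2, did not overlap but missed the threshold (1.12 ± 0.35, adjusted p = 0.163), and its second probe differed by 0.05. Irf1, a factor that also answers interferon gamma, overlapped between the groups (0.06 ± 0.27, adjusted p = 0.966), and its 5 probes differed by -0.17 to 0.21.

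Antiviral effectors made up 17 of the tested genes, and 7 of them rose, with a median log2 difference of 2.22 over the 17. Rsad2 stood at 9.02 and 9.13 in wt mucosa, 7.87 and 7.10 in Apcmin tumours and 11.08, 10.41 and 11.48 in LIN28B/Apcmin tumours. These 3 groups did not overlap, with wt mucosa between the tumours, and the tumour groups differed by 3.50 ± 0.53 (adjusted p = 0.0172). Ifit3 stood at 7.97 and 8.32, 7.99 and 7.51 and 10.30, 10.49 and 11.10 in the same order. The LIN28B/Apcmin arrays stood apart from 4 arrays of wt and Apcmin tissue that overlapped each other, 2.88 ± 0.46 above Apcmin tumours (adjusted p = 0.0209). Its other 2 probes differed by 2.72 and 2.98. Mx2, a dynamin-like GTPase, had the smallest adjusted p of the 33 genes (0.00626). It was detected on only 1 of the 2 Apcmin colon arrays, as were Rtp4 and Trim25 below, so these 3 differences rest partly on signal at background. It stood at 4.94 and 5.13 in wt mucosa, 4.89 and 4.71 in Apcmin and 6.94, 7.36 and 7.71 in LIN28B/Apcmin tumours, a log2 difference of 2.54 ± 0.31 between the tumour groups.

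Oas2, an oligoadenylate synthetase whose product activates RNase L, stood at 6.37 and 5.82 in Apcmin tumours and, on 2 arrays, at 8.98 and 9.97 in LIN28B/Apcmin tumours (3.38 ± 0.66, adjusted p = 0.0411). Oasl1, an oligoadenylate synthetase-like protein reported in mouse to restrain translation of Irf7 mRNA, stood at 8.72 and 8.53 in wt mucosa, 6.87 and 6.27 in Apcmin and, on 2 arrays, 8.99 and 8.73 in LIN28B/Apcmin tumours. As with Irf7, the Apcmin arrays were the low ones while wt and LIN28B/Apcmin arrays lay close together, and the tumour groups differed by 2.28 ± 0.39 (adjusted p = 0.0298). A second Oasl1 probe, measured on all 3 arrays, differed by 1.80 (adjusted p = 0.0486) and another by 1.43 (adjusted p = 0.175). Apol9b, whose probe may also bind its near-identical copy Apol9a, was not detected on either Apcmin colon array and stood at 7.05, 7.88 and 8.76 in LIN28B/Apcmin tumours, at least 8.48-fold higher (adjusted p = 0.0365). The bound sets the LIN28B/Apcmin mean against the lowest detected signal of each Apcmin array. Rtp4, an interferon-induced receptor transporter protein, stood at 5.09 and 4.68 in Apcmin and 6.4, 6.84 and 7.05 in LIN28B/Apcmin tumours, without overlap (1.88 ± 0.31, adjusted p = 0.0221).

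The other 10 effectors missed the threshold, several of them narrowly. Ifit2, a partner of IFIT3, stood at 7.73 and 7.34 in Apcmin and 10.69, 9.92 and 10.72 in LIN28B/Apcmin tumours (2.91 ± 0.62, adjusted p = 0.0542), and its second probe passed in a fit of each probe (3.07, adjusted p = 0.0192). Oas1a (1.48 ± 0.31, adjusted p = 0.0532), whose probe was not tested for binding to its close copies, and the mitochondrial nucleotide kinase Cmpk2 (2.11 ± 0.46, adjusted p = 0.0561) also lay just outside it. Oasl2 (2.62 ± 0.63) and Isg15 (2.22 ± 0.67) had estimates as large as genes that passed, with wider errors, and adjusted p-values of 0.0839 and 0.156. The virus-tethering protein Bst2 (1.17 ± 0.41, adjusted p = 0.218), with 2 LIN28B/Apcmin arrays, did not overlap between the groups. Mx1, disrupted in many laboratory strains, was not detected on the Apcmin arrays and was at least 1.64-fold higher in LIN28B/Apcmin tumours (adjusted p = 0.163). Oas3, detected on 2 of 3 LIN28B/Apcmin arrays and no Apcmin array, was at least 1.08-fold higher (adjusted p = 0.467). Ifitm3, which blocks viral fusion in endosomes, differed by 0.29 ± 0.30 (adjusted p = 0.740), and the nucleotide-degrading enzyme Samhd1 by 0.46 ± 0.35 (adjusted p = 0.627).

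Among the 6 tested regulators and modifiers, 2 rose. Usp18, which removes ISG15 and restrains the interferon receptor, stood at 9.15 and 7.69 in Apcmin and 10.90, 11.37 and 10.44 in LIN28B/Apcmin tumours (2.48 ± 0.50, adjusted p = 0.0411). The groups did not overlap, and its other 2 probes differed by 3.01 and 3.16 (adjusted p = 0.0344 and 0.0413). Trim25, a ubiquitin ligase that acts on RIG-I, stood at 4.85 and 4.84 and 6.10, 5.97 and 7.06 (1.54 ± 0.32, adjusted p = 0.0480). The remaining 4 did not overlap but did not pass, from Trim30a, another TRIM family ligase (1.98 ± 0.65, adjusted p = 0.188), over the ADP-ribosyltransferases Parp14 (1.5) and Parp12 (1.27) to Ifi35 (0.53). Cxcl10, the chemokine of the list, which draws T cells, stood at 6.4 and 5.06 in Apcmin and 6.06, 7.10 and 6.54 in LIN28B/Apcmin tumours and overlapped (0.84 ± 0.59, adjusted p = 0.589).

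The count of 13 rests on few arrays. Without Apcmin colon replicate 2 it was 0, without Apcmin replicate 1 it was 1, without LIN28B/Apcmin colon replicate 2 it was 2, and without LIN28B/Apcmin colon replicate 3 or either wt colon array it was 5. The median log2 difference of the members stayed between 1.28 and 1.78 in the 14 fits that leave out 1 array. Both ends came from fits without a LIN28B/Apcmin colon array. Leaving out an array of a group outside this comparison can hardly move the median. The LIN28B/Apcmin colon arrays that remain always share the title number 2135. With arrays of 1 title number averaged within a group, which merged the 3 LIN28B/Apcmin colon and the 2 iLIN28B arrays, Mx2 alone passed (adjusted p = 0.0496).

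Genes of the pathway outside this response were read in lists chosen with earlier results of these data known. Between the colon tumour groups 1.18% of all genes were called in either direction. A count of 0 in lists this short therefore cannot show that their genes did not differ. Of 21 interferon ligand genes 19 had a probe, and 5 were measured (Ifna1, Ifna6, Ifna12, Ifna15 and Ifnz). None of these 5 passed in limma between the colon tumour groups, 0 had an unadjusted p under 0.05, and their log2 differences ran from -0.076 to 0.43. Of 9 receptor and kinase genes 8 were measured and 0 passed (limma, 1 with an unadjusted p under 0.05). Among these, Jak1 differed by 0.76 ± 0.30 (adjusted p = 0.271), Ifnlr1, a subunit of the type III interferon receptor, by 0.52 ± 0.27 (adjusted p = 0.440) and Ifnar2 by 0.28 ± 0.23 (adjusted p = 0.674). Of 13 measured genes of nucleic acid sensing 0 passed (limma, 2 with an unadjusted p under 0.05), namely the DNA exonuclease Trex1 (0.71 ± 0.24, adjusted p = 0.201) and the DNA sensor Aim2 (-0.73 ± 0.27, adjusted p = 0.243). Of 6 measured genes listed as inhibitors 0 passed (limma, 0 with an unadjusted p under 0.05), with Socs1 at 0.38 ± 0.20 (adjusted p = 0.450). That list also holds Isg20, an interferon-induced antiviral exonuclease and no inhibitor of the signal (0.52 ± 0.44, adjusted p = 0.676). The medians of these lists were 0.034, 0.18, -0.022 and 0.32.

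A list of 61 other interferon-stimulated genes, of which 36 were measured, had a median log2 difference of 0.67. In it 3 genes rose, 19 had an unadjusted p under 0.05, all higher, and 0 fell. Of all genes 0.499% were called higher, 0.677% lower and 1.18% either. Those that rose were Tor3a, an ATPase of the endoplasmic reticulum (1.53 ± 0.29, adjusted p = 0.0349), the galectin-binding protein Lgals3bp (1.62 ± 0.32, adjusted p = 0.0365) and the membrane protein Shisa5 (0.84 ± 0.17, adjusted p = 0.0385). Of 19 measured genes associated with interferon gamma, which include Irf1, 0 passed (limma, 5 with an unadjusted p under 0.05), and their median was 0.38. The nearest to the threshold were the peptide transporter subunit Tap1 (1.73 ± 0.41, adjusted p = 0.0758) and the GTPase Irgm2 (1.82 ± 0.48, adjusted p = 0.105).

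**Figure D2:**
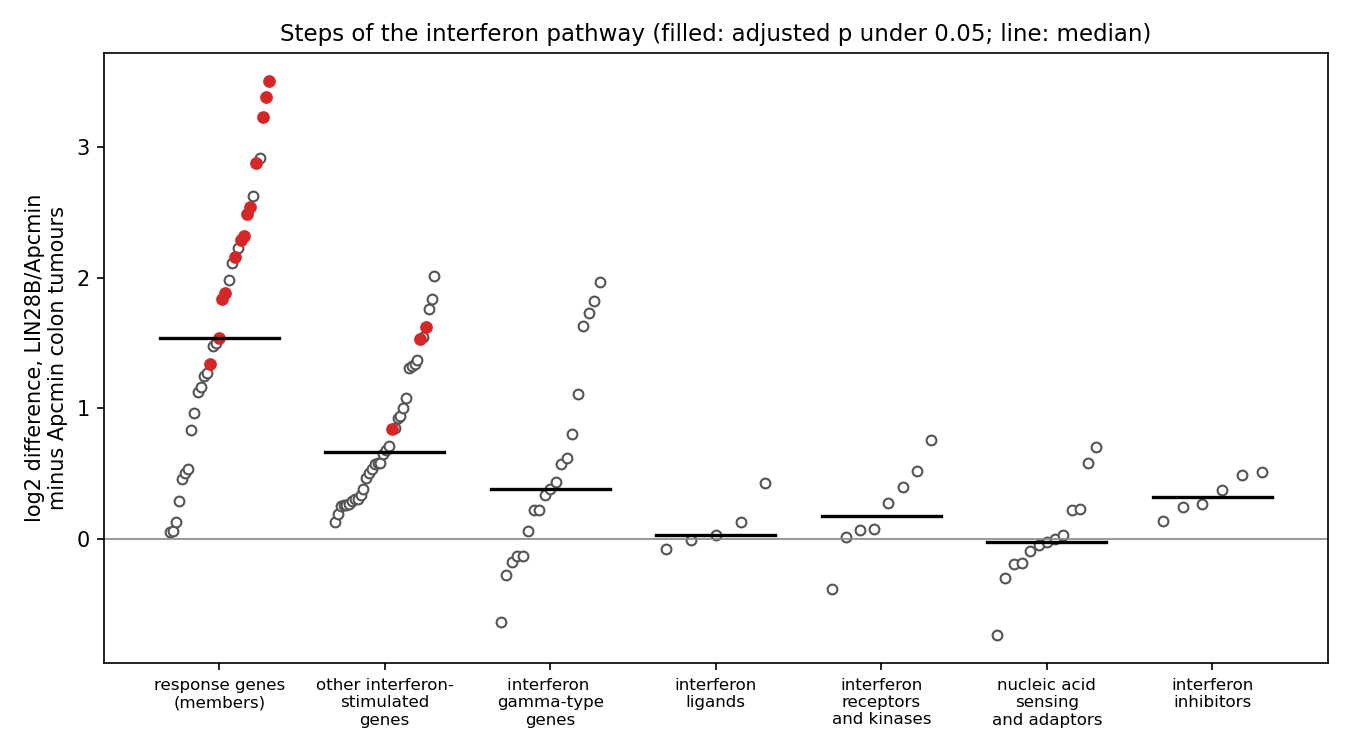
Log2 difference between LIN28B/Apcmin and Apcmin colon tumours (vertical axis) for each measured gene of 7 lists (1 point per gene, sorted within its list, line at the median, filled at an adjusted p under 0.05). The 33 response genes have a median of 1.54, and the ligand, receptor and sensing lists lie near 0 with no gene past the threshold.

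Markers of other cells were read in the same contrast. In limma 0 of the 75 measured markers of 8 cell types passed between the colon tumour groups, where 1.18% of all genes were called in either direction. At so low a share, a count of 0 cannot show that the markers did not differ. The summed normalised intensity of 4 red blood cell markers, of 8 listed, was 10947 to 23549 in LIN28B/Apcmin and 6612 to 9569 in Apcmin tumours, and 2 of the 4 had an unadjusted p under 0.05. That of 7 of 10 B and plasma cell markers was 199 to 319 against 915 to 945, and 3 of the 7 had an unadjusted p under 0.05, all lower. The 14 of 21 myeloid markers summed to 16070 to 19034 against 10436 to 16008, with 0 at an unadjusted p under 0.05. The 7 of 11 plasmacytoid dendritic cell markers summed to 3458 to 6104 against 3084 to 3907 and overlapped. Of these 7, 1 was higher and 0 were lower at that level. The 10 smooth muscle markers summed to 7215 to 9404 against 12113 to 14031, with 4 of the 10 lower at an unadjusted p under 0.05. The 12 fibroblast and endothelial markers summed to 6067 to 8252 against 9291 to 9977, with 2 lower at that level, and neither list overlapped between the groups. The 11 of 12 epithelial markers (36951 to 49089 against 45903 to 48613) overlapped, with 1 higher and 1 lower at that level. The lowest of these sums lacks Krt20, whose signal was lost on LIN28B/Apcmin replicate 3. The T and NK cell markers (10 of 19) summed to 660 to 849 against 620 to 668 and overlapped, with 0 at an unadjusted p under 0.05. The part of these cells in the differences of the interferon genes was not tested. In whole tissue, fewer cells of a type and less RNA per cell cannot be told apart.

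Apcmin colon tumours were compared with wt colon mucosa, a comparison that shares the Apcmin arrays with the one above. In it 29 of 33 interferon genes had a point estimate below 0, with a median log2 difference of -0.52 against 0.016 over all genes, but 2 fell and 1 rose at an adjusted p under 0.05, while 7.9% of all genes fell, 6.62% rose and 14.5% did either. Irf7 fell by 2.34 ± 0.44 (adjusted p = 0.00567) and Oasl1 by 2.05 ± 0.39 (adjusted p = 0.00749). The wt arrays of both genes, given above, lay near those of the LIN28B/Apcmin tumours. Ifitm3 rose by 2.07 ± 0.32 (adjusted p = 0.00210), from 11.55 and 11.51 in wt mucosa to 13.71 and 13.50 in Apcmin tumours, and stood at 13.94, 14.02 and 13.73 in LIN28B/Apcmin tumours. Rsad2 (-1.59 ± 0.58, adjusted p = 0.0921), Parp12 (-1.16 ± 0.43, adjusted p = 0.0970) and Trim25 (-0.95 ± 0.35, adjusted p = 0.0978) were next to the threshold. In 23 of 33 genes both Apcmin arrays lay below both wt arrays, against 33.2% of all genes, and in 2, Irf9 and Ifitm3, above, against 35%. Without wt colon replicate 1 a single member passed. In the same comparison 8 of 10 smooth muscle markers fell (12113 to 14031 against 50834 to 53288 in wt), as did the epithelial markers Cdx2 and Krt20, 2 of 11. Of 14 myeloid markers 4 rose (10436 to 16008 against 4152 to 4597), as did 3 of 4 red blood cell markers (6612 to 9569 against 513 to 1525), and the part of these cells was not tested.

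**Figure D3:**
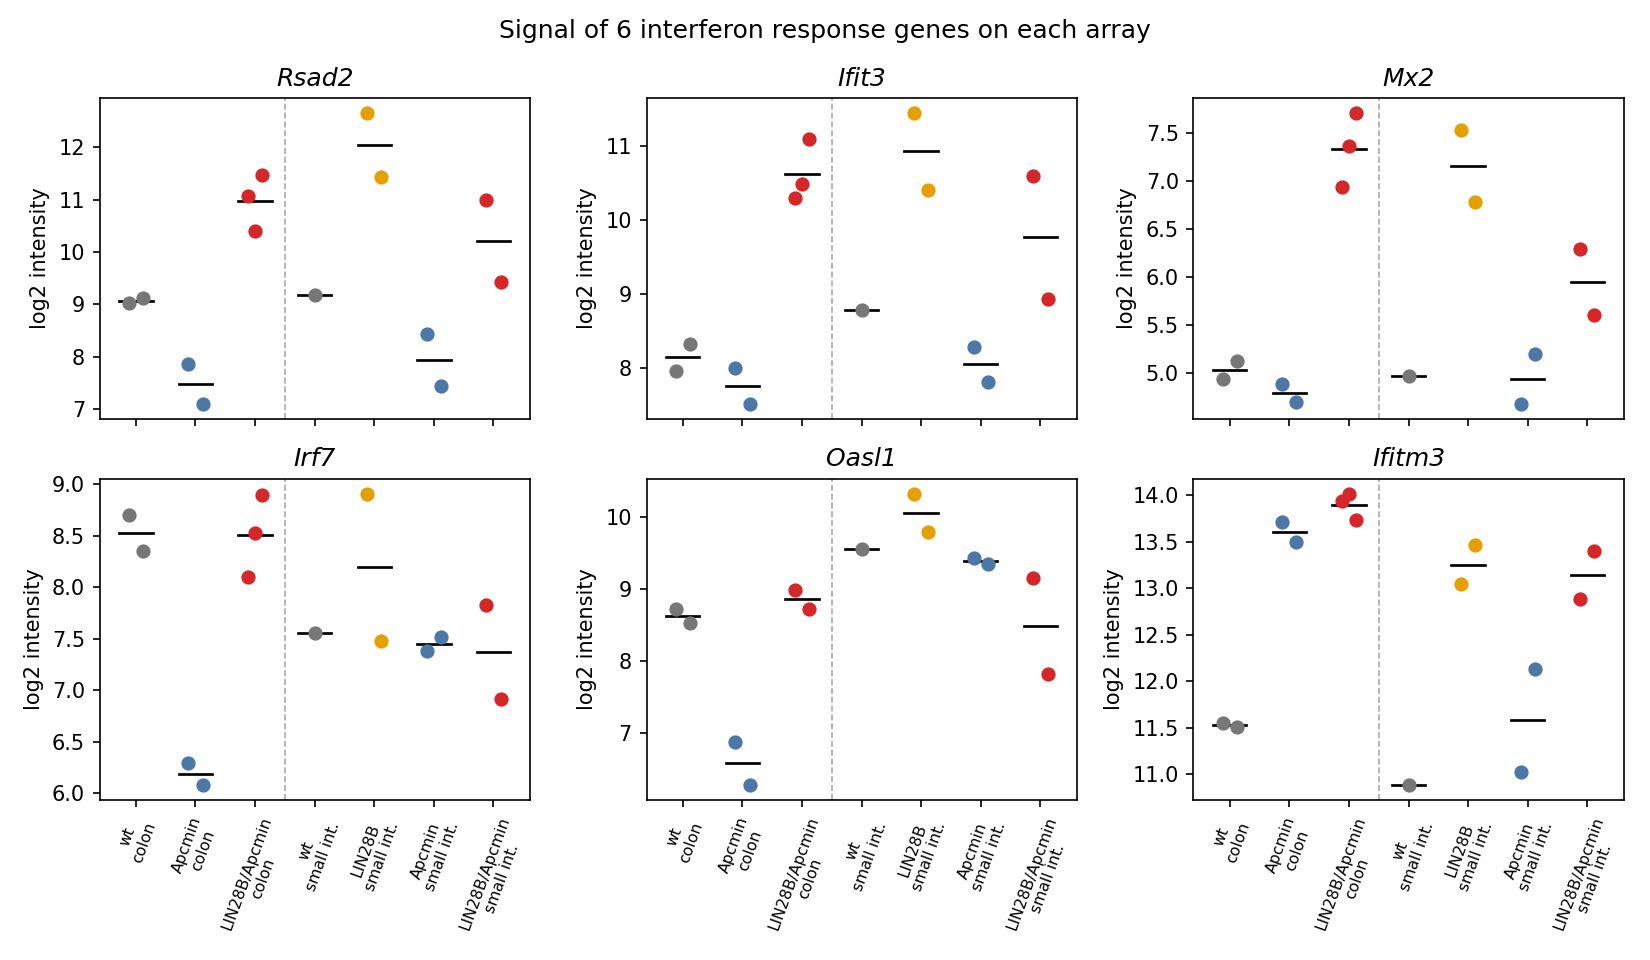
Log2 intensity (vertical axes) of Rsad2, Ifit3, Mx2, Irf7, Oasl1 and Ifitm3 on each array (points) of the 7 groups, with the group mean as a line and a dashed line between colon and small intestine. Irf7 and Oasl1 are lowest in Apcmin colon tumours, Mx2 is high in LIN28B/Apcmin colon and LIN28B small intestinal tumours, and Ifitm3 is above wt colon mucosa in both colon tumour groups.

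LIN28B/Apcmin colon tumours also stood above wt colon mucosa, a comparison that shares arrays with both before it. Here 14 of 33 genes rose and 0 fell, while 13.7% of all genes were called higher, 14.2% lower and 27.9% either. At an unadjusted p under 0.05, 16 of the 33 were higher and 0 lower, and the share of all genes at that level is not given here. The median log2 difference was 1.06 against 0.037 over all genes. In 23 genes every LIN28B/Apcmin array with a signal lay above both wt arrays, against 30.1% of all genes, and in 2, Ifih1 and Irf1, below, against 26.8%. The 14 were Ifit2 (3.17 ± 0.62), Ifit3 (2.49 ± 0.46), Ifitm3 (2.36 ± 0.30), Usp18 (2.36 ± 0.50), Mx2 (2.30 ± 0.31), Oas2 (2.13 ± 0.66), Rsad2 (1.91 ± 0.53), Cmpk2 (1.56 ± 0.46), Rtp4 (1.46 ± 0.31), Irf9 (1.36 ± 0.35), Dhx58 (1.32 ± 0.35), Eif2ak2 (1.23 ± 0.27), Oas1a (1.10 ± 0.31) and Adar (0.93 ± 0.24), with adjusted p-values from 0.000257 to 0.0363. Further probes of Adar and Irf9 did not pass in a limma fit of each probe. Those of Adar differed by 0.69 and 0.28 (adjusted p = 0.123 and 0.408), and that of Irf9 by 0.62 (adjusted p = 0.357). Irf7 (-0.02 ± 0.40, adjusted p = 0.980) and Oasl1 (0.24 ± 0.39, adjusted p = 0.707), the genes that fell in Apcmin tumours, did not pass here. The count was 4 without wt colon replicate 1 and 9 without wt colon replicate 2. The wt mucosa carried more smooth muscle signal, with 10 of 10 markers summing to 50834 to 53288 against 7215 to 9404 in LIN28B/Apcmin tumours, and 10 of the 10 fell in this comparison. It carried less myeloid signal (4152 to 4597) and less red blood cell signal (513 to 1525), and the part of these cells was not tested.

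In the small intestine the same 2 tumour genotypes differed less uniformly. Between LIN28B/Apcmin and Apcmin small intestinal tumours 1 interferon gene rose and 1 fell, while 2.06% of all genes rose, 2.46% fell and 4.51% did either, and 8 of 33 had an unadjusted p under 0.05. The median log2 difference was 0.28 against 0.026 over all genes, and 13 of 33 estimates were below 0. Ifitm3 rose, from 11.03 and 12.14 to 12.89 and 13.40 (1.56 ± 0.32, adjusted p = 0.0264). Irf1 fell, from 11.83 and 12.01 to 10.97 and 10.09 (-1.39 ± 0.30, adjusted p = 0.0296). Neither gene's groups overlapped, and wt mucosa stood at 10.89 for Ifitm3 and 12.16 for Irf1. Rsad2 stood at 8.44 and 7.44 in Apcmin and 10.99 and 9.43 in LIN28B/Apcmin tumours, just outside the threshold (2.27 ± 0.58, adjusted p = 0.0508). Ifit3 (1.72 ± 0.51, adjusted p = 0.0737) and Mx2 (1.01 ± 0.34, adjusted p = 0.10) were also higher in both LIN28B/Apcmin arrays than in both Apcmin arrays without passing. In 10 of 33 genes the LIN28B/Apcmin arrays lay wholly above, against 27.2% of all genes, and in 5 (Zbp1, Irf1, Oasl1, Samhd1 and Ifi35) wholly below, against 23%. The count was 0 without wt colon replicate 1 or 2, Apcmin small intestinal replicate 1 or LIN28B/Apcmin small intestinal replicate 2, which share the fit's estimate of spread, and 1 without either Apcmin colon array or Apcmin small intestinal replicate 2.

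The 2 LIN28B/Apcmin small intestinal arrays differed from each other. Over the 33 genes, the median level relative to each gene's mean was -0.047 on replicate 1 and -0.84 on replicate 2, whose title names mucosa and which held the lowest value of 10 genes. Without replicate 2 the members' median difference from Apcmin tumours was 0.40, and without replicate 1 it was -0.20, so the median rests on which array is kept. Of the pathway lists, 2 of 13 sensing genes fell here, Mavs (-1.0 ± 0.20, adjusted p = 0.0244) and the kinase Ikbke (-1.07 ± 0.27, adjusted p = 0.0488), and 2 of 19 interferon gamma genes fell, the tryptophan-degrading enzyme Ido1 (-4.12 ± 0.67, adjusted p = 0.0126) and Irf1. Of 36 other interferon-stimulated genes, Ifitm2, a close relative of Ifitm3, rose (1.5 ± 0.30, adjusted p = 0.0252). Smooth muscle markers summed to 2801 to 8323 in LIN28B/Apcmin against 15031 to 18799 in Apcmin small intestinal tumours, and 6 of 10 fell. The part of these cells was not tested.

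**Figure D4:**
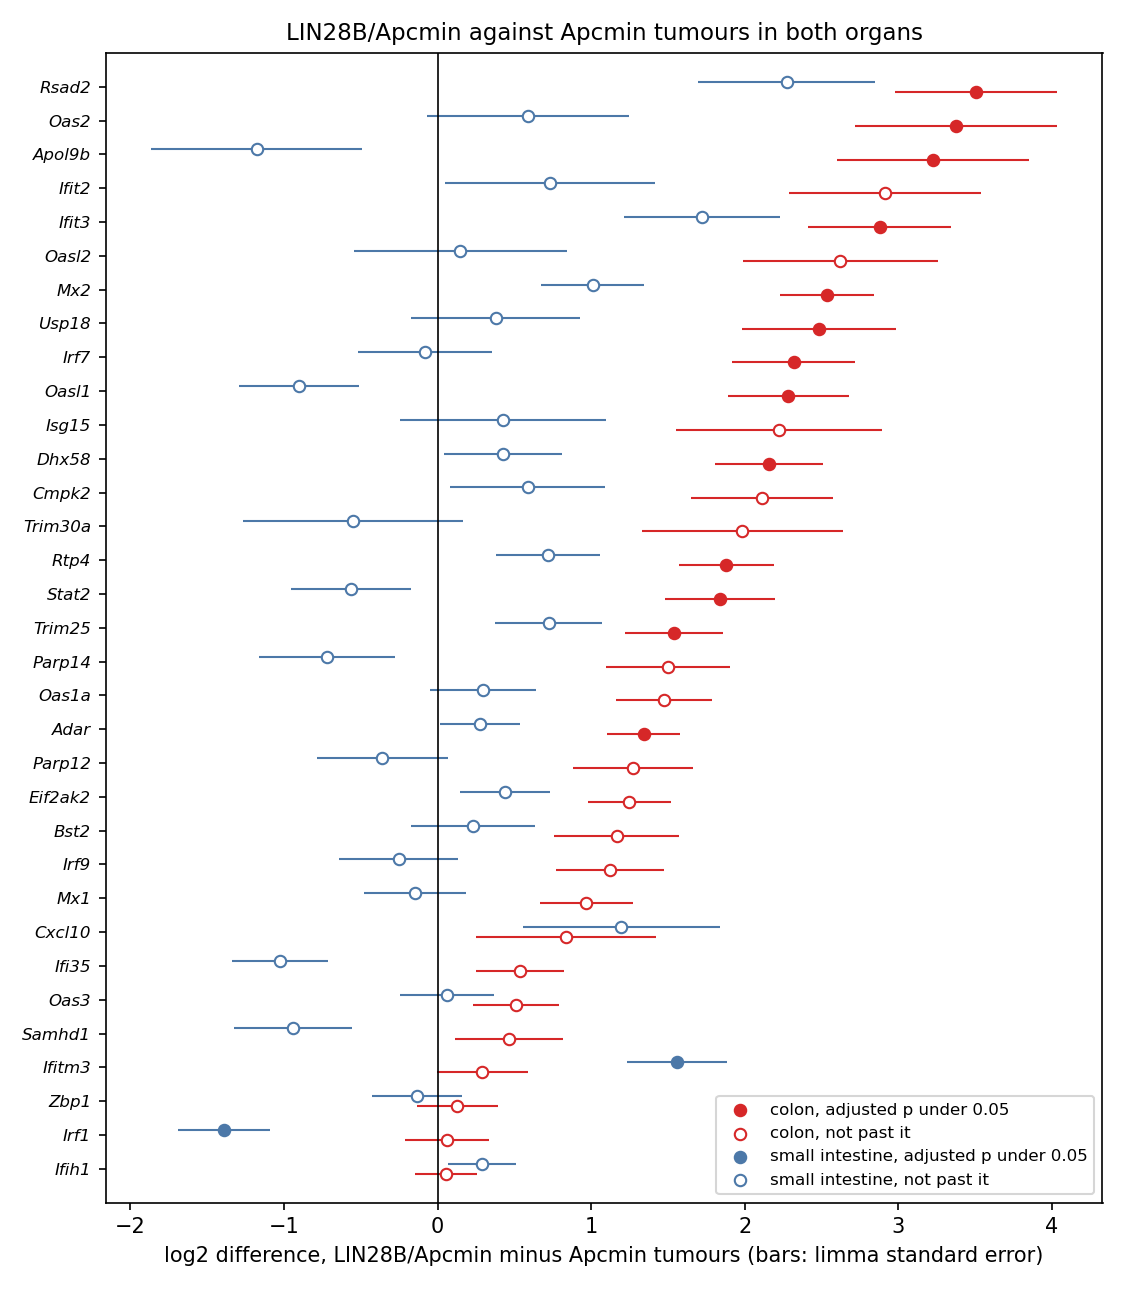
Log2 difference between LIN28B/Apcmin and Apcmin tumours (horizontal axis, bars of 1 standard error) of the 33 interferon response genes in colon and small intestine, filled at an adjusted p under 0.05. All 33 colon estimates lie above 0, whereas 13 of the small intestinal ones lie below it.

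Whether the LIN28B difference itself depends on the organ was tested as an interaction. Oasl1 alone of the 33 genes passed, with a colon difference larger than the small intestinal one by 3.19 ± 0.55 (adjusted p = 0.0477), while 0.419% of all genes were called. The probe behind this value had lost LIN28B/Apcmin colon replicate 3, which read under 25. The other Oasl1 probes, with a signal on all 14 arrays, gave 1.98 and 2.65. They did not pass in a limma fit of each probe (adjusted p = 0.161 and 0.125). Small intestinal levels of Oasl1 were 9.56 in wt, 9.44 and 9.35 in Apcmin and 9.16 and 7.82 in LIN28B/Apcmin tissue, so that LIN28B/Apcmin arrays were the lower ones there. The estimate was above 0 in 30 of 33 genes, the exceptions being Ifih1, Ifitm3 and Cxcl10, and at an unadjusted p under 0.05 22 were higher and 1 lower. The median over the 33 was 1.45 against -0.021 over all genes. Among the others, none of which passed, Stat2 had an estimate of 2.40 ± 0.53 (adjusted p = 0.0843). Apol9b was not detected in Apcmin colon tumours, so no size is given for it. The count was 7 without LIN28B/Apcmin small intestinal replicate 1, 2 without Apcmin small intestinal replicate 2, and 0 in 10 of the 14 fits that leave out 1 array.

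The organs were also compared within a genotype. In LIN28B/Apcmin tumours 15 of 33 genes were higher in colon than in small intestine and 0 lower, while 8.34% of all genes were called higher and 7.52% lower, and the median difference was 1.01 against 0.012. Ifit2 differed most (3.96 ± 0.62, adjusted p = 0.00213), standing at 10.69, 9.92 and 10.72 in colon and 7.56 and 5.41 in small intestine. It was followed by Oas2 (3.04 ± 0.66), Usp18 (2.43 ± 0.50), Trim30a (2.34 ± 0.65), Isg15 (2.30 ± 0.67) and Apol9b (2.14 ± 0.63). The transcription factors Stat2 (1.71 ± 0.36), Irf9 (1.70 ± 0.35) and Irf1 (1.15 ± 0.27) were among the 15. So were Bst2 (2.00 ± 0.41), Dhx58 (1.80 ± 0.35), Oas1a (1.6 ± 0.31), Parp14 (1.49 ± 0.40), Mx2 (1.38 ± 0.31) and Mx1, not detected in the small intestine and at least 1.53-fold higher in colon. In a limma fit of each probe, a further Irf9 probe differed by 0.89 and did not pass (adjusted p = 0.219). Further Irf1 probes differed by 0.72 to 1.32, with adjusted p-values of 0.0408 to 0.187. The count was 2 without LIN28B/Apcmin small intestinal replicate 2 and 9 without LIN28B/Apcmin colon replicate 2. Myeloid markers, of which 11 of 14 were higher in colon, summed to 16070 to 19034 there against 1848 to 2309, and their part was not tested.

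In Apcmin tumours 3 of 33 members were lower in colon and 1 was higher. Of all genes 9.07% were lower, 10.3% higher and 19.4% either. The count of members called lower was thus near the share of all genes, and the total was under it. Oasl1 was lower in colon (-2.82 ± 0.39, adjusted p = 0.00104), as was Ifi35 (-1.05 ± 0.31, adjusted p = 0.0391). Apol9b, not detected in Apcmin colon tumours, stood at 6.13 and 7.73 in the small intestine and was at least 4.35-fold lower in colon (adjusted p = 0.0415). Ifitm3 was higher in colon (2.02 ± 0.32, adjusted p = 0.00182). The median over the 33 was -0.19 against 0.048 over all genes, and the count was 2 without either wt colon array or either Apcmin colon array. Of 14 myeloid markers 7 were higher in colon (10436 to 16008 against 1535 to 4242), as were 3 of 12 fibroblast and endothelial markers (9291 to 9977 against 4066 to 4606). Of 10 smooth muscle markers 4 were lower (12113 to 14031 against 15031 to 18799), as were 3 of 11 epithelial markers, and the part of these cells was not tested.

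Small intestinal tumours of iLIN28B mice without the Apcmin allele carried high levels of many interferon genes. Replicate 1 held the highest value of the 14 arrays for 13 of the 33 genes, and lay above the gene's mean for 33 of 33, with replicate 2 of the same title number above it for 24. Cxcl10 stood at 9.01 and 7.29 in iLIN28B tumours, 4.94 and 4.49 in Apcmin tumours and 6.67 and 5.16 in LIN28B/Apcmin tumours. Rsad2 stood at 12.67 and 11.43 and Ifit3 at 11.46 and 10.41 in iLIN28B tumours, and replicate 1 lay above every LIN28B/Apcmin colon array in both genes. For Ifit2 the iLIN28B arrays read 11.20 and 9.22, against 7.56 and 5.41 in LIN28B/Apcmin, 5.76 and 5.74 in Apcmin and 5.31 in wt small intestine.

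Of the 33 genes, 32 had a lower estimate in LIN28B/Apcmin than in iLIN28B small intestinal tumours, with a median of -1.30 against -0.00052 over all genes. Only Ifit2 passed (-3.73 ± 0.68, adjusted p = 0.0339), while 0.401% of all genes fell, 0.472% rose and 0.873% did either, and 21 of 33 had an unadjusted p under 0.05. In 22 of 33 genes both LIN28B/Apcmin arrays lay below both iLIN28B arrays, against 23.8% of all genes. Trim25 alone had an estimate above 0 (0.31 ± 0.35). The count was 13 without LIN28B/Apcmin replicate 1 and 0 in 8 of the 14 fits that leave out 1 array. These groups also differ in age, 8 against 3 months, and in histology, and these cannot be told apart from the Apcmin allele. No marker passed in limma. At an unadjusted p under 0.05, 5 of 14 myeloid markers were lower (1848 to 2309 in LIN28B/Apcmin against 3492 to 5050 in iLIN28B tumours), as were 5 of 10 smooth muscle markers (2801 to 8323 against 9367 to 12242) and 4 of 12 fibroblast and endothelial markers, while 3 of 4 red blood cell markers were higher (3294 to 7914 against 2538 to 2588). The part of these cells was not tested.

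Set in order by the median level of the 33 genes relative to each gene's mean, LIN28B/Apcmin colon tumours (0.45, 0.88 and 1.15, the last over 29 genes) and iLIN28B small intestinal tumours (1.11 and 0.25) came highest and overlapped. Wt colon (-0.30 and -0.055), wt small intestine (-0.22) and LIN28B/Apcmin small intestine (-0.047 and -0.84) lay between and overlapped. Apcmin tumours of the small intestine (-0.40 and -0.63) and colon (-0.60 and -0.99) came lowest as groups and overlapped each other and LIN28B/Apcmin small intestine, and the 3 LIN28B/Apcmin colon arrays lay above all Apcmin arrays of both organs.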

How the data were processed

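Total RNA of each sample was labelled and hybridised to an Illumina array, per the labels' protocols, and the scanner software was not given in the sources used here. The deposited values are an average bead intensity per probe and a detection p-value per probe and array, per the file headers. A second deposited table holds intensities that the authors had normalised by a method not stated in it, and was used as an alternative only. The tables held 2 lines with no probe identifier, which entered no fit. The 14 of 16 arrays with at least 20% of probes at a detection p under 0.05 were used, and signals under 25 were set missing, so the fit drops them. Intensities were background-corrected with negative controls inferred from the detection p-values (offset 16), quantile-normalised and taken to log2 in limma 3.58.1 (R 4.3.3, with version 1.17.8 of data.table). Of 25697 probes, 23978 had 1 gene symbol in the platform annotation. Probes detected on 2 or more arrays were kept, and the probe with the highest mean stood for each of 11230 genes. Where genes had several probes, the others were fitted each on its own.

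Each contrast came from 1 limma model of the 7 groups, with Benjamini-Hochberg adjustment over all genes and a threshold of 0.05, tested on simulated data. The 7 groups share 1 estimate of the spread, with 7 residual degrees of freedom. The correlation within title numbers was estimated at -0.064 and set to 0. Members and gene lists were chosen with earlier results of these data known. All 37 members could be named, and of the other lists the genes called in a comparison, by smallest p. Jak1, Ifnlr1, Ifnar2, Trex1, Aim2, Socs1, Isg20, Tap1 and Irgm2 fall outside that rule and were chosen after their values were seen. Promoters come from RefSeq, build GRCm38.p6. The main fit did not pair samples by replicate number. The correlation of same-numbered deviations ran from -0.033 to 0.36 over 15 pairs of groups, 3 of them above 0.1, which cannot exclude pairing. Wt colon and wt small intestinal replicate 2 share the title number 1032 and may come from 1 mouse. Alternatives changed the arrays, background correction, scaling, filter, probe and blocks, or left out 1 array. Python 3.11 with pandas 2.3.3 and matplotlib 3.10.9 drew the figures. The number of arrays limits the precision.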

Additional observations from a re-analysis of the deposited data

Results flagged for a closer look

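LIN28B/Apcmin colon replicate 4, left out of every comparison, stood far from the other 3 of its group with 12% of probes detected. On it 17 of 54 member probes kept a signal, and these were not simply the bright ones. The dim probe of Xaf1 kept its signal. Those of Ifitm3 (log2 13.73 to 14.02 on the other 3 arrays) and Rsad2 (10.41 to 11.48) did not. Dhx58, Adar, Irf7, Oasl1, Rsad2, Mx2, Apol9b and Trim25, which rose between the colon tumours, can therefore not be read on this array. Of the 17 probes, 10, of 10 genes, lay above both Apcmin colon arrays in deposited intensity. Isg15 read 1267.4 against 195.9 to 382.5, Oas2 806.3 against 104.6 to 159.3, and Usp18 1310 against 281.1 to 795. Oasl2 read 1500.7 against 364.6 to 702, Ifit3 807 against 253.5 to 391.3, and Ifit2 502.2 against 149.4 to 210. Cxcl10 read 228.1 against 77.9 to 161.3, Stat2 213.3 against 106.1 to 158.6, and Rtp4 102 against 66.3 to 85.1. Ifih1, at 58.9 against 58.1 to 58.3, was not detected on either Apcmin array, so no difference can be read from it. The 7 that did not lie above were those of Eif2ak2 (791.7 against 872.1 to 1070.5), 3 of Irf1 (1389.4 against 3244.1 to 4170 for the brightest), 2 of Zbp1 (156.3 against 157.9 to 163.4 for the brighter) and Xaf1 (47.4 against 55.1 to 67). The array was otherwise dim, with a median ratio of 0.387 to the Apcmin mean over 1742 bright probes that kept a signal, of which 0.918% lay above both Apcmin arrays. Of the 12 member probes among these, 7 did. Its title number, 1053, is not that of the other 3 tumours. These are raw intensities of 1 failing array, given with no test.

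The LIN28B difference of Oasl1 was larger in colon than in small intestine by 3.19 ± 0.55 (adjusted p = 0.0477 in limma). This value comes from a probe without LIN28B/Apcmin colon replicate 3. The other Oasl1 probes gave 1.98 and 2.65 and did not pass (adjusted p = 0.161 and 0.125 in limma). For Ifi35 every LIN28B/Apcmin array lay above the Apcmin arrays in colon and below them in small intestine. The difference between the organs was 1.56 ± 0.43 and did not pass (adjusted p = 0.143 in limma).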

How the results depend on the processing

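Of 53 called gene differences, each refitted under every alternative, 922 of 1272 refits kept direction and threshold, 340 lost the threshold and 10 turned in sign. Some alternatives could change little and kept 53 of 53. These were each probe on its own, the title number block at its estimate, and the fit without wt small intestinal replicate 2. With title numbers averaged 21 of 53 were kept. All 10 changes of sign came in the fit of all 16 arrays. That fit also kept signals under 25 and used a correlation within title numbers of 0.625, against 0 in the main fit. Those that turned were Adar (-0.15) and Oasl1 (-0.40) between the colon tumours, Dhx58 (-0.41), Adar (-0.51), Irf9 (-0.88), Rsad2 (-0.073) and Ifitm3 (-0.11) between LIN28B/Apcmin colon tumours and wt, and Irf9 (-0.57), Bst2 (-0.066) and Parp14 (-0.36) between the organs in LIN28B/Apcmin tumours. With all 16 arrays fitted in this way 0 members passed in any of the 8 comparisons (limma, 0 to 7 at an unadjusted p under 0.05), and the median of all genes between the colon tumours shifted to -0.46. Which of these changes moved the results was not tested. Median scaling shifted that median to -0.12.

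Between the colon tumours the count of 13 became 2 with signals under 25 kept, 6 with no filter on dim probes and 1 with title numbers averaged (0 to 17 over the fits without 1 array). Averaging also left 9 of 14 between LIN28B/Apcmin and wt colon (4 to 15), 0 of 2 between the small intestinal tumours (0 to 3), 0 of 1 against iLIN28B (0 to 13), 4 of 15 between the organs in LIN28B/Apcmin (2 to 16) and 0 of 1 in the interaction (0 to 7). Without 1 array, Apcmin against wt colon gave 1 to 4 and the organs in Apcmin tumours 2 to 5. Keeping signals under 25 gave 0 between the small intestinal tumours, 0 against iLIN28B, 1 and 9 between the organs in Apcmin and LIN28B/Apcmin tumours and 0 in the interaction. No filter gave 0 against iLIN28B, 2 between the organs in Apcmin tumours and 0 in the interaction. Median scaling gave 5 against iLIN28B. No background correction and the second deposited table gave 0 in the interaction. In these limma fits with a count of 0, 7 to 21 members had an unadjusted p under 0.05.

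The main fit did not pair samples by replicate number. With the replicate number as a block the counts were 7 between the colon tumours, 5 for Apcmin against wt colon, 5 between the small intestinal tumours, 3 against iLIN28B and 8 between the organs in Apcmin tumours. The other 3 counts stayed within 1.5 times.

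The groups hold 1 to 3 arrays, and within LIN28B/Apcmin colon and iLIN28B tumours all arrays share a title number. Ifih1, Oas3 and Mx1 were near background in most groups, which limits their differences.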
